A study of Mus musculus with 80 samples.

Results

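The genes described here are the canonical histone genes of the mouse, taken as every row whose symbol begins with Hist1h, Hist2h, Hist3h or Hist4h in 2 gene count tables of mouse liver. The rule found 62 of 18877 rows in the table for di(2-ethylhexyl) phthalate (DEHP) and 60 of 17672 rows in the table for dichloroacetic acid (DCA), 65 genes in all, of which 57 are in both tables, 5 only in the DEHP table and 3 only in the DCA table. By the histone named in the symbol, 6 are H1, 15 H2A, 19 H2B, 12 H3 and 13 H4 genes. Hist3h2bb-ps, counted with H2B, is annotated as a processed pseudogene. On chromosome 13 lie 51 of them, on chromosome 3 lie 10, on chromosome 11 lie 3 and on chromosome 6 lies 1. All animals were B6C3F1 males 4 weeks old per the labels (B6C3F1 is a cross of a pair of inbred strains). DEHP, a plasticizer, was fed for 7 days to 16 mice, 4 each at 0 (control), 1500, 3000 and 6000 ppm, whose livers were collected in 2013. DCA, a by-product of water disinfection, was dissolved in the drinking water of 24 mice, 6 each at 0 (control), 1, 2 and 3.5 g/L, whose livers were collected in 1994, and the labels give no length of exposure. Of each of the 40 livers, a block of named lobes fixed in formalin and embedded in paraffin (FFPE) gave 1 library and frozen tissue of mixed lobes gave another, 80 libraries in all, so preparation and lobe cannot be told apart. The replicates are separate animals.

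Most canonical histone genes are switched on together when a cell copies its DNA, so that new chromosomes can be packed into nucleosomes. H2A, H2B, H3 and H4 form the nucleosome core and H1 binds the linker DNA. Their messenger RNAs are the main group in animals that ends in a short stem-loop in place of a poly(A) tail: the stem-loop binding protein SLBP and the U7 small nuclear RNP direct the cut after it, and the RNA is degraded when DNA synthesis stops. In non-dividing cells some of these genes also make longer, polyadenylated RNAs. The libraries were made from total RNA with ribosomal RNA removed and no selection for poly(A), per the labels, so both forms of RNA could be sequenced, and the tail itself was not measured.

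The stem-loop is shown because it is what sets these transcripts apart. Searched within 100 bases after the stop codon of the annotated transcripts (GENCODE, GRCm38), the stem-loop was present in 42 of 64 members with a coding transcript (65.62%), against 3 of 21596 other coding genes (0.01389%). The capitals mark the stem-loop, and each line is read from the strand of the gene.

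Hist1h4c: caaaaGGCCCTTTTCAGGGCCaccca
Hist1h4h: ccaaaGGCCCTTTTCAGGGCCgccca
Hist4h4: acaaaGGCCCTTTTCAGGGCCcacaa
Hist1h4b: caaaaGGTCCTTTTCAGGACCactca
Hist2h2aa2: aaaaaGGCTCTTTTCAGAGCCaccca
Hist2h3c1: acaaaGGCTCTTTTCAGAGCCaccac
Hist1h1c: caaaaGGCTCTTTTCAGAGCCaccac
Hist3h2a: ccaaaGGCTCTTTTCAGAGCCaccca

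In GRCm38 the capitals of Hist1h4c lie at chr13:23698089-23698104 (minus strand), of Hist1h4h at chr13:23531458-23531473 (plus), of Hist4h4 at chr6:136803998-136804013 (minus) and of Hist1h4b at chr13:23757366-23757381 (plus). Those of Hist2h2aa2 lie at chr3:96239784-96239799 (minus), of Hist2h3c1 at chr3:96247327-96247342 (plus), of Hist1h1c at chr13:23739512-23739527 (plus) and of Hist3h2a at chr11:58955172-58955187 (plus). All lie in the 3′ untranslated region of their gene. The loop letters are the same in all 8, while the stem of the H4 genes differs from that shared by the H2A, H3 and H1 genes. Members differ in where their annotated transcript ends: 20 end near the stem-loop, 22 run on past it (extended), 16 have no tail annotated, 6 have a tail in which the search found no stem-loop, among them the H2B genes Hist1h2bc and Hist2h2be, and 1 has no coding transcript.

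Promoters of 2 members are shown because both genes are called below and because their letters differ by histone type. Each sequence runs from 250 bases before to 50 bases after the start of the gene (RefSeq, GRCm38.p6), and the capitals mark the letters CCAAT on either strand, where the other strand reads ATTGG here, and also the letters TATAAA of a TATA box, and the octamer ATTTGCAT.

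Hist1h2bb: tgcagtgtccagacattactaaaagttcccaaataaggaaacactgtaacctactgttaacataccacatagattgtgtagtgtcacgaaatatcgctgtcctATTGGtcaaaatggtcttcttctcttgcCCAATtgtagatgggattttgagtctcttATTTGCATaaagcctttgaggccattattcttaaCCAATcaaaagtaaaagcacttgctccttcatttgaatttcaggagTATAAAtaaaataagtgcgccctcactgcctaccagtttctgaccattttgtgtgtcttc
Hist1h4c: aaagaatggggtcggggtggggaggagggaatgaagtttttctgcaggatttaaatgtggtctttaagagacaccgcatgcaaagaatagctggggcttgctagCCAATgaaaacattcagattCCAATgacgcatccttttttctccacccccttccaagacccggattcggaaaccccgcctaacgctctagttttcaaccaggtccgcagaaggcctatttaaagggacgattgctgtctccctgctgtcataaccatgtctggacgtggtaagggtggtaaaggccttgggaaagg

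The Hist1h2bb window is chr13:23746484-23746783 (plus strand) and the Hist1h4c window is chr13:23698409-23698708 (minus strand). Of the members, 58 matched a promoter entry. Read on both strands, CCAAT was found in 49 of 58 members (84.48%) and in 40.96% of 26963 other promoters of the same length. It was in every H1, H2A, H2B and H3 promoter and in 3 of 12 H4 promoters (25%), Hist1h4c among them. TATAAA was found in 55.17% of the members and 15.57% of the others, and the octamer in 12 of 58 members (20.69%), all of them H2A or H2B genes, and in 1.921% of the others. CCAAT and the octamer can share letters at their ends. A match is a description of the sequence only.

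Total counts ranged from 11673000 to 18866100 in DEHP FFPE libraries and from 16583000 to 29550600 in DEHP frozen libraries, with 2217 to 3827 counts on histone rows in FFPE and 3255 to 6923 in frozen libraries. The DCA libraries had 109292 to 8434620 counts in FFPE and 3067670 to 16890000 in frozen tissue, with 0 to 680 histone counts in FFPE and 639 to 6034 in frozen libraries. Liver identity was checked with 12 hepatocyte markers (such as Alb and Apoa1), whose summed level was 53080 to 76288 counts scaled to library size (CPM) in DEHP FFPE, 82520 to 123974 in DEHP frozen, 7088 to 38371 in DCA FFPE and 91444 to 174102 in DCA frozen libraries. CPM are scaled by TMM within a chemical and preparation, except in the comparisons of FFPE with frozen tissue, where both preparations of a chemical were scaled together and values differ somewhat. In bulk tissue, fewer cells of a type and less RNA per cell cannot be told apart.

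In untreated frozen livers 1 gene stood first. Hist1h2bc, an H2B gene whose annotated transcript holds no stem-loop in the searched window, was at 66.3 ± 8.76 CPM in DEHP frozen controls (SD, n = 4), 32.7% of all histone counts, and at 51.9 ± 4.08 CPM in DCA frozen controls (n = 6), 19.7% of them. The linker histone genes Hist1h1c and Hist1h1e came next, at 28.1 and 22.1 CPM in DEHP frozen controls and at 30.2 and 31.5 CPM in DCA frozen controls. Then followed Hist2h2aa1 (12.97 CPM), Hist1h4h (9.63 CPM), Hist2h3c1 (7.67 CPM), Hist1h4c (6.96 CPM), Hist1h4d (5.47 CPM), Hist4h4 (5.33 CPM) and Hist1h1d (4.24 CPM) in DEHP controls, so that 10 rows held 83.2% of the sum. In DCA controls the next were Hist2h2aa2 (18.8 CPM), Hist2h3c1 (17.2 CPM), Hist1h4h (11.01 CPM), Hist1h4c (9.45 CPM), Hist1h4d (8.91 CPM), Hist1h1d (8.67 CPM) and Hist1h4m (6.82 CPM), and 10 rows held 73.7%.

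Per length, in the authors' FPKM, Hist1h2bc was also first, at 94.6 ± 11.2 in DEHP frozen controls, 78.4 ± 10.9 in DEHP FFPE controls and 86.0 ± 7.03 in DCA frozen controls, ahead of Hist1h4c at 25.3 FPKM in the first and 58.7 FPKM in the last. The gap to the next gene was larger than the spread between animals in these groups. In DCA FFPE controls Hist1h4c was listed first, at 0 to 181 FPKM, on 0, 4, 10, 0, 0 and 79 counts. Hist1h1t, the testis linker histone, was at 0 to 0.111 CPM across the DEHP libraries. Levels of near-identical pairs (Hist2h2aa1 and Hist2h2aa2, Hist2h3c1 and Hist2h3c2, Hist1h2bq and Hist1h2br) and of the H4 copies are uncertain one by one, because RSEM divides shared reads between them.

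The summed histone level is given without a test. In DEHP FFPE livers it was 153 to 185 CPM (median 163) at 0 ppm, 185 to 210 CPM (median 199) at 1500 ppm, 179 to 224 CPM (median 199) at 3000 ppm and 160 to 242 CPM (median 217) at 6000 ppm. In DEHP frozen livers it was 179 to 220 CPM (median 207) at 0 ppm, 227 to 262 CPM (median 232) at 1500 ppm, 173 to 240 CPM (median 218) at 3000 ppm and 203 to 269 CPM (median 216) at 6000 ppm. Only the 1500 ppm frozen group lay wholly above its controls among the frozen groups.

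In DCA frozen livers the sum was 224 to 344 CPM (median 242) at 0 g/L, 147 to 252 CPM (median 168) at 1 g/L, 200 to 367 CPM (median 251) at 2 g/L and 136 to 227 CPM (median 171) at 3.5 g/L. The levels at 1 and 3.5 g/L were low and those at 2 g/L were not, so the order of the doses is broken. The ranges of dosed and control livers overlap at every dose, at 1 g/L through animal 49 and at 3.5 g/L through animal 97. In DCA FFPE livers the sum was 44.2 to 89.3 CPM at 0 g/L, 23.2 to 68.3 CPM at 1 g/L, 0 to 257 CPM at 2 g/L and 0 to 84.0 CPM at 3.5 g/L, on few counts. These values depend on the scaling. At 0 g/L the TMM factors ran from 0.214 to 2.21, and without them the sum was 16.6 to 195 CPM.

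**Figure D1:**
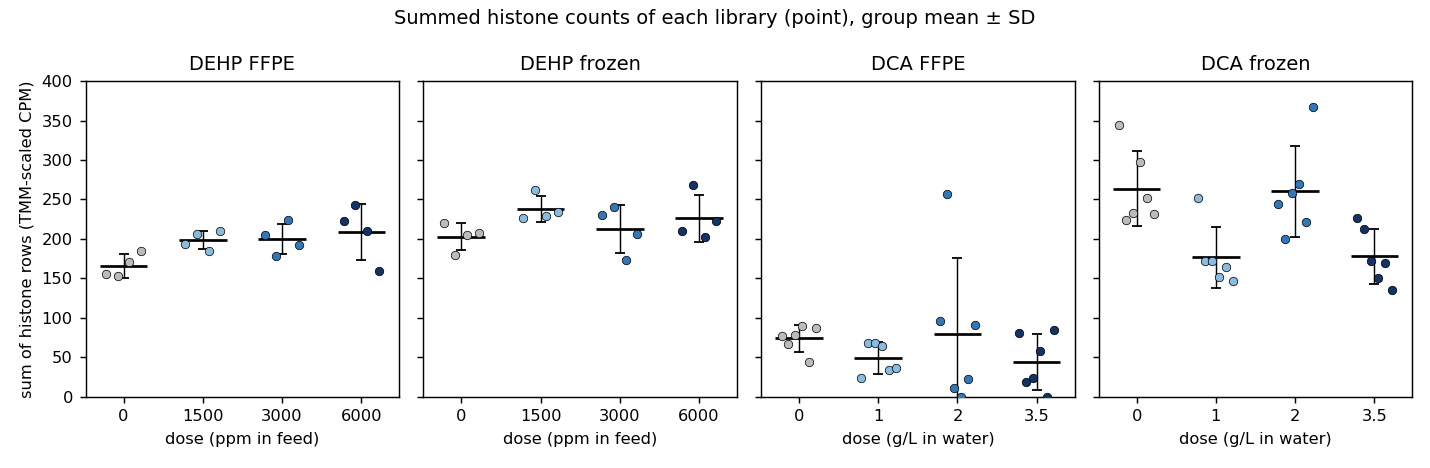
Summed histone level (CPM, linear axis from 0) by dose for DEHP FFPE, DEHP frozen, DCA FFPE and DCA frozen livers; points are libraries, and the mean and SD of each dose group are drawn. In DCA frozen livers the 3.5 g/L libraries sit between 136 and 227 CPM and the controls between 224 and 344 CPM, while the 2 g/L libraries span 200 to 367 CPM.

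At 3.5 g/L DCA, most of the core histone genes tested fell in frozen liver, and no linker histone gene was called lower. Of 41 members tested, 24 fell and 1 rose, against 21.1% and 21.9% of all 13089 genes tested called lower and higher, and the members' median log2 fold change was -1.13, against -0.02 over all genes. Calls are adjusted p under 0.05 by edgeR's quasi-likelihood test with Benjamini-Hochberg adjustment over all genes. By type, 10 of 12 H4 genes (median log2 fold change -1.54), 4 of 4 H2A genes (-1.77), 6 of 10 H2B genes (-0.65) and 4 of 10 H3 genes (-0.92) fell, and of 5 H1 genes 1 rose and none fell (median 0.17). By transcript end in GENCODE, 10 of 13 that end near the stem-loop fell (median -1.46). Of 15 extended ones 11 fell and 1 rose (median -1.13). Of 5 with a tail but no stem-loop found 3 fell (median -0.66), and none of 8 with no tail annotated was called (median -0.31). Whether the authors' counts used the same gene models was not checked, and these classes also differ in histone type.

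Hist4h4, an H4 gene that stands alone on chromosome 6, had 0.678, 1.09 and 2.75 CPM (lowest, median and highest) at 3.5 g/L, against 3.84, 4.23 and 5.40 CPM at 0 g/L. The groups do not overlap. Its log2 fold change was -1.71 (SE 0.30, adjusted p = 5.67e-05, edgeR). Hist2h2aa2, an H2A gene, had 1.34, 3.38 and 9.54 CPM at 3.5 g/L, against 12.9, 16.96 and 29.6 CPM at 0 g/L, also with no overlap, a log2 fold change of -2.14 (SE 0.42, adjusted p = 0.000237, edgeR). Hist1h4d, another H4 gene, had 0.954, 1.48 and 6.06 CPM at 3.5 g/L, against 5.65, 8.16 and 13.1 CPM at 0 g/L. There 1 treated library reached into the control range, and the log2 fold change was -1.95 (adjusted p = 0.000723, edgeR).

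The H4 genes Hist1h4n and Hist1h4b had few or no counts at 3.5 g/L, but not in every liver at 2 g/L. Hist1h4n had no count in any of the 6 libraries at 3.5 g/L and none in the 6 at 1 g/L, against 5 to 77 counts (median 23.5) at 0 g/L and 0 to 85 counts at 2 g/L. Hist1h4b had 0 to 2 counts at 3.5 g/L and 0 to 11 counts at 1 g/L, against 2 to 21 counts at 0 g/L, and 0 to 26 counts at 2 g/L. Both were called lower at 3.5 g/L (adjusted p = 0.000976 for Hist1h4n and 0.000525 for Hist1h4b, edgeR), and no fold is given for counts this low.

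Hist1h2bc, the most abundant member, fell by 0.64 on the log2 scale (SE 0.09, adjusted p = 4.22e-06, edgeR): it had 28.2, 34.4 and 37.1 CPM at 3.5 g/L, against 46.4, 51.5 and 58.2 CPM at 0 g/L. All treated libraries lay below all controls. The H3 gene Hist2h3c1 had 8.52, 10.3 and 13.99 CPM at 3.5 g/L, against 11.7, 17.5 and 22.2 CPM at 0 g/L (log2 fold change -0.70, adjusted p = 0.000391, edgeR), with overlap. Its near-identical partner Hist2h3c2 fell by 1.65 (adjusted p = 0.000775), and the H2B gene Hist2h2be by 0.66 (adjusted p = 0.000495, edgeR).

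The other named members that fell on the log2 scale were Hist2h4 (-1.57), Hist1h2ao (-2.59), Hist1h4h (-1.51), Hist1h4c (-1.19), Hist1h4i (-1.27), Hist1h2ab (-1.39), Hist3h2a (-0.65) and Hist1h2bb (-0.61), with adjusted p from 0.000395 to 0.0482 (edgeR). Hist1h4c and Hist1h4h, the H4 genes of highest CPM, overlapped with their controls through 1 high treated library each (10.98 CPM for Hist1h4c and 10.3 CPM for Hist1h4h).

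The only member that rose was Hist1h1d, a linker histone gene, with 8.90, 11.9 and 17.7 CPM at 3.5 g/L, against 6.77, 8.25 and 13.1 CPM at 0 g/L (log2 fold change 0.56, SE 0.18, adjusted p = 0.0168, edgeR). It was not called when animal 97 was left out. The groups overlap, and the other linker genes Hist1h1c (0.29, adjusted p = 0.127) and Hist1h1e (-0.12, adjusted p = 0.454, edgeR) did not pass, nor did Hist1h3a (-0.48, adjusted p = 0.272).

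**Figure D2:**
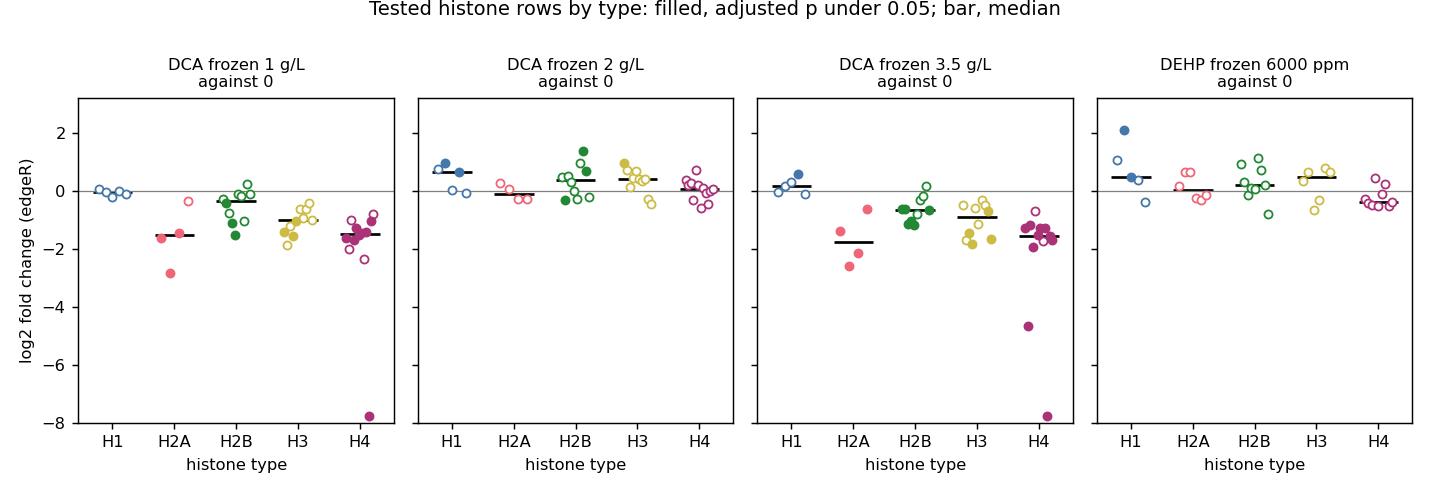
Fitted log2 fold change against 0 of every tested histone gene, by histone type, for DCA frozen 1, 2 and 3.5 g/L and DEHP frozen 6000 ppm; each point is a gene, filled where called, and the bar is the median. At 3.5 g/L DCA the H4 median is -1.54 and the H1 median 0.17; the lowest points are Hist1h4n and Hist1h4b, whose counts at that dose were 0 to 2.

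The lower doses did not form a graded series. At 1 g/L 17 of 41 members fell (10 without control 3 or treated 51, 11 without 52) and none rose (27 at an unadjusted p under 0.05, and 19 lower and 0 higher with DESeq2), against 7.01% and 4.11% of all genes, with a median of -1.03. Among these 17 were 8 of 12 H4 and 3 of 4 H2A genes, and no H1 gene was called in either direction. At 2 g/L 5 members rose and 1 fell, against 15.5% and 13.7% of all genes. Those that rose were Hist1h2bq (1.36), Hist1h1b (0.96), Hist1h3a (0.95), Hist1h1d (0.66) and Hist2h2bb (0.66), and the one that fell was Hist1h2bc (-0.34, adjusted p = 0.00882, edgeR). In a linear trend over dose 1 member rose and 11 fell, against 20.5% and 18.8% of all genes. Hist1h2bc, at 38.9, 41.0 and 33.2 CPM at 1, 2 and 3.5 g/L against 51.9 CPM at 0 g/L, was called lower at every dose, which no other member was.

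The summed H4 level shows the same break. It was 35.8 to 79.1 CPM at 0 g/L, 10.99 to 51.4 CPM at 1 g/L, 37.6 to 93.4 CPM at 2 g/L and 9.63 to 47.8 CPM at 3.5 g/L. The summed H1 level was 56.1 to 92.3 CPM at 0 g/L, 61.3 to 88.1 CPM at 1 g/L, 64.4 to 102 CPM at 2 g/L and 67.1 to 103 CPM at 3.5 g/L, and its ranges overlap throughout.

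The column names carry a code of L and a number, whose meaning they do not state, and it was not spread over the doses. All controls carry L5, all 3.5 g/L libraries L4, and the 2 g/L libraries L3 or L4, 3 each. At 1 g/L animal 49 carries L5 like the controls, and its H4 sum was 51.4 CPM, against 10.99 to 17.3 CPM in the other 5. Of those, animals 53 and 54 also differ from all other frozen DCA libraries in the first code of the name; with that code as a term, 2 members fell at 1 g/L in place of 17, and this term does not adjust for the L code. Doses 3.5 and 0 g/L share no L code, so dose and code cannot be told apart there. Within L4 the 6 libraries at 3.5 g/L could be set against 3 at 2 g/L: 14 of 37 members fell and none rose, against 3.57% and 3.63% of all genes, with a median of -1.37. The reference there is a dosed group, so this is not a fall against 0 g/L. It includes animal 78, which had the highest H4 sum (93.4 CPM). Hist4h4 (-1.92, adjusted p = 0.0152), Hist2h2aa2 (-2.11, adjusted p = 0.0163) and Hist1h4h (-1.93, adjusted p = 0.0257, edgeR) were among the 14.

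Other RNAs that lack a poly(A) tail moved with the core histone genes in the DCA frozen livers. Of 8 such RNAs tested, 5 fell at 3.5 g/L and none rose, against 21.1% and 21.9% of all genes called lower and higher. The 5 were the RNase P RNAs Rpph1 (-0.95), Rprl2 (-2.18) and Rprl3 (-1.35), the telomerase RNA Terc (-0.73) and, by little, Scarna13 (-0.22). The summed level of the listed tail-less RNAs was 1155 to 3174 CPM at 3.5 g/L, against 2390 to 3719 CPM at 0 g/L. In DEHP livers, too, low H4 sums went with low levels of these RNAs, given as a description. In frozen liver H4 and these RNAs were at 9.57 and 685 CPM in 71A, 16.8 and 1059 in 64C, and 18.8 and 1181 in 9A. The medians of that set were 33.8 and 1685 CPM. In FFPE they were at 12.6 and 1356 CPM in 8C, 20.7 and 1178 in 35A, and 20.8 and 1253 in 9A (medians 32.4 and 2314). 

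The 24 libraries fell into 2 clusters by their H4 sum. In 10 libraries H4 was 9.63 to 20.2 CPM and the other tail-less RNAs 1099 to 1726 CPM, and in 14 libraries H4 was 35.8 to 93.4 CPM and the other RNAs 2390 to 5096 CPM. The split is at the widest gap in H4. The 10 were all 1 and 3.5 g/L libraries except those of animals 49 and 97. The 14 were these 2 animals, all controls and all 2 g/L libraries. Across the libraries of a cluster the log2 levels correlated at r = 0.79 in the first and r = 0.85 in the second, given as a description, since they share library and scaling. Within the 6 libraries of a dose r was 0.95, 0.97, 0.96 and 0.98 at 0, 1, 2 and 3.5 g/L, and within the 9 that carry L4 it was 0.99. The 45S ribosomal RNA precursor row (Rn45s), which records how much ribosomal RNA was left, held 0.243% to 0.487% of counts at 3.5 g/L, against 0.329% to 1.57% at 0 g/L. With its log2 share as a covariate, 12 members in place of 24 fell at 3.5 g/L and 1 in place of 17 at 1 g/L. The part of tail-less RNA recovery in the dose results was not tested.

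**Figure D3:**
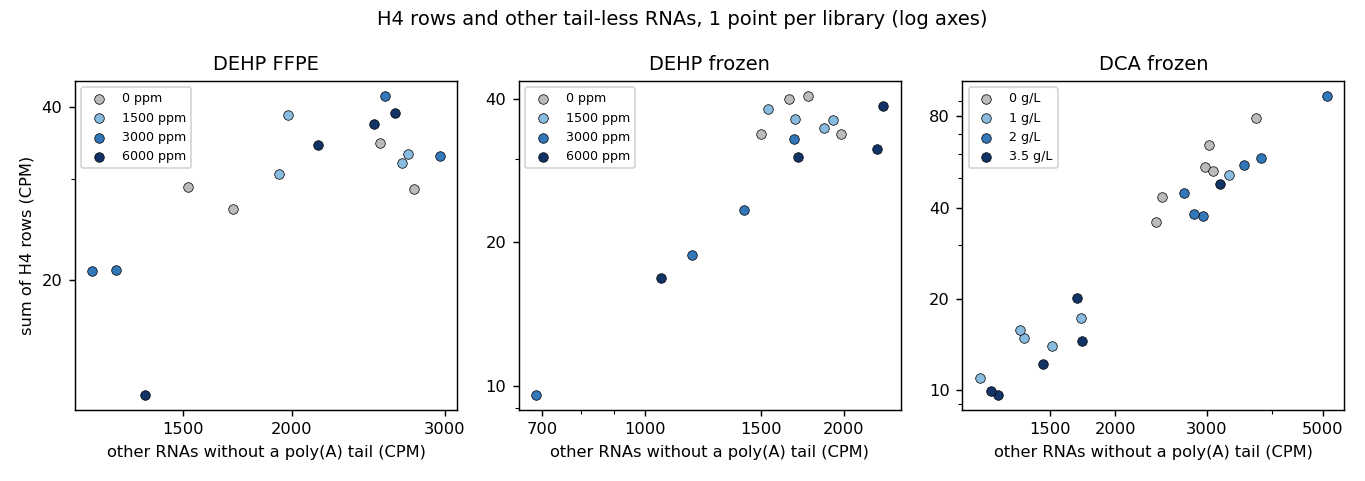
Summed H4 level against the summed level of other RNAs without a poly(A) tail, 1 point per library and log axes in CPM, in 3 panels. In DCA frozen livers the points fall into 1 cluster of 10 libraries at 9.63 to 20.2 CPM of H4 and another of 14 at 35.8 to 93.4 CPM. The lower cluster holds only 1 and 3.5 g/L animals. The upper holds all controls, all 2 g/L animals, animal 49 (1 g/L) and animal 97 (3.5 g/L).

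In DCA frozen livers at 3.5 g/L the counts of cell division genes lay near or below the shares of all genes called, 21.9% higher and 21.1% lower. Of 22 genes of G2 and mitosis 5 rose and none fell (median 0.73), led by Kif20a (1.40), a mitotic kinesin, while of 32 genes of DNA replication and S phase 4 fell and none rose (median -0.24), led by Tk1, thymidine kinase (-1.13). Of 22 genes of histone mRNA processing 7 rose and 1 fell, with Snrpe at 0.42, while Slbp (0.01) and Npat, the histone gene activator (0.20, adjusted p = 0.0603, edgeR), did not pass. Of 9 histone variants listed as replication-independent, 1 rose (H3f3b, 0.50) and 2 fell (H2afj, -1.34, and H2afx). H2afx is 1 of the 3 other coding genes in which the search found the stem-loop, so this list is not free of it. Of 12 histone chaperones 1 rose and 3 fell.

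Markers of other cell types also moved at 3.5 g/L. Of 12 Kupffer cell and macrophage markers 9 fell, with summed levels of 190 to 287 CPM at 3.5 g/L against 338 to 468 CPM at 0 g/L. Of 6 red cell markers 5 fell and 1 rose (474 to 833 CPM at 3.5 g/L against 551 to 1443 CPM at 0 g/L), of 12 hepatocyte markers 9 fell and 2 rose, of 9 stellate cell markers 6 fell, of 9 endothelial markers 4 fell, of 5 bile duct markers none was called, and 1 lymphocyte marker of 12 passed the filter on low counts (Cd4, which fell). Their part in the histone result was not tested.

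DEHP gave few histone calls. At 6000 ppm in frozen liver 2 of 35 members tested rose and none fell, against 7.05% and 4.72% of all genes, with a median of 0.18 against -0.03 over all genes. Both are linker histone genes. Hist1h1c had 37.5, 45.9, 35.8 and 38.7 CPM at 6000 ppm, against 30.8, 22.1, 25.9 and 33.8 CPM at 0 ppm, with no overlap and a log2 fold change of 0.49 (SE 0.14, adjusted p = 0.0261, edgeR). Hist1h1b had 0.448, 0.899, 0.551 and 0.407 CPM at 6000 ppm, against 0.0985, 0.223, 0.153 and 0 CPM at 0 ppm, also with no overlap (2.11, SE 0.66, adjusted p = 0.0451, edgeR), on few counts. Neither gene was called without control animal 45C or without control animal 63A. Hist1h1c also lost its call without treated animal 44A or 8C, and Hist1h1b without control 32A or 75A or treated 64C or 8C. Hist1h1b passed the filter in only 7 of the 8 fits that left out 1 animal, and its call was lost in 6 of them. Fewer than 2 members were called in 7 of the 8 fits, and 2 were called without 29B. The H3 gene Hist2h3c1 was at 11.4 to 14.4 CPM at 6000 ppm, above every control (5.34 to 9.51 CPM), but did not pass (0.79, adjusted p = 0.0671), and Hist2h2be was at -0.80 (adjusted p = 0.0579, edgeR).

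At 1500 ppm 1 member rose and none fell in frozen liver, against 4.34% and 2.14% of all genes: Hist1h1c again (37.3, 41.7, 35.2 and 49.0 CPM, log2 fold change 0.54, adjusted p = 0.0263, edgeR), a call lost without control 45C or 63A or treated 40A or 72B. At 3000 ppm 1 rose and 2 fell, against 8.17% and 6.48%. Hist1h2bc rose (84.8, 115, 81.2 and 86.8 CPM at 3000 ppm against 67.3, 56.7, 63.7 and 77.7 CPM at 0 ppm, log2 fold change 0.47, adjusted p = 0.0368, edgeR). Hist4h4 fell (3.99, 3.40, 3.00 and 3.33 CPM against 5.32, 5.97, 4.98 and 5.07 CPM at 0 ppm, -0.64, adjusted p = 0.0163), as did Hist1h4h (7.76, 4.86, 1.60 and 3.74 CPM against 10.505, 8.29, 8.85 and 10.9 CPM at 0 ppm, -1.12, adjusted p = 0.0302, edgeR). None of the 3 overlapped with controls. The call of Hist1h4h was lost in 6 of 8 fits that left out 1 animal (all but 45C and 35A) and that of Hist1h2bc in 4 of 8 (45C, 63A, 67C and 9A), while that of Hist4h4 was lost in 0; the count lower ran from 1 to 4, with 4 without 35A. The H4 sum at 3000 ppm was 9.57 to 33.1 CPM, against 33.7 to 40.6 CPM at 0 ppm, and the other tail-less RNAs were at 685 to 1683 CPM against 1498 to 1979 CPM. No member was called in the linear trend in edgeR (5 at an unadjusted p under 0.05), against 1.42% and 1.19% of all genes higher and lower.

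Many cell division genes rose at the top dose. In frozen liver at 6000 ppm 17 of 22 genes of G2 and mitosis rose (median 2.38), with summed levels of 48.0, 242, 33.0 and 49.9 CPM at 6000 ppm against 16.97, 25.2, 17.5 and 12.8 CPM at 0 ppm. Animal 44A stood far above the other treated animals. The sums were also high at lower doses, at 97.7, 38.9, 53.8 and 60.9 CPM at 1500 ppm and 23.2, 48.3, 52.5 and 47.3 CPM at 3000 ppm. Among the genes that rose at 6000 ppm were Kif20a (3.41), Ccnb1 (3.55), the mitotic cyclin, and Mki67 (2.27, adjusted p = 0.00772, edgeR), the gene of the division marker Ki-67. Of 32 genes of DNA replication and S phase 8 rose (median 0.39), with Mcm4 at 0.92 and Mcm2 at 1.25, both subunits of the replicative helicase. Top2a (1.73, adjusted p = 0.0544), Pcna (0.19), Slbp (0.04), Npat (-0.16), H2afz (0.01), H3f3b (0.10) and Rmrp (0.22) did not pass. None of 21 genes of histone mRNA processing and none of 8 other tail-less RNAs was called, and of 12 chaperones Chaf1a, a subunit of the replication-coupled assembly factor, rose (1.12) and 2 fell. Of the cell markers, 5 of 12 for hepatocytes fell, and of those for Kupffer cells (12), red cells (5) and bile duct (4) none was called.

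In FFPE liver at 6000 ppm 3 of 32 members rose and none fell, a share close to the 7.94% of all genes called higher, against 4.43% called lower. They are a near-identical pair of H3 genes on chromosome 3 and the H1 gene Hist1h1c. When the authors' second count tables were used, 0 members were called higher, and the log2 ratio of the summed level was 0.17 in place of 0.33. Hist2h3c2 had 2.95, 3.69, 2.65 and 1.84 CPM at 6000 ppm, against 0.847, 0.850, 1.41 and 0.618 CPM at 0 ppm, with no overlap (1.58, SE 0.29, adjusted p = 0.00178, edgeR). Hist2h3c1, its near-identical partner, had 19.2, 25.3, 18.5 and 16.3 CPM at 6000 ppm, against 11.3, 11.5, 11.7 and 8.09 CPM at 0 ppm, with no overlap (0.89, SE 0.17, adjusted p = 0.00202, edgeR). Hist1h1c had 36.7, 43.2, 34.4 and 25.1 CPM at 6000 ppm, against 19.6, 17.1, 20.7 and 28.3 CPM at 0 ppm, where 1 treated library lay below the highest control (0.70, adjusted p = 0.0147, edgeR).

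Both H3 genes also rose at 3000 ppm in FFPE liver (1.18 for Hist2h3c2 and 0.62 for Hist2h3c1), the only 2 members that did, and none fell, against 6.15% and 3.24% of all genes. Without treated animal 35A or 71A 1 member was called, and with the second count tables or only both groups in the fit 0 were. They were the only ones in the upward trend (1.40, adjusted p = 0.0166, and 0.79, adjusted p = 0.0227, edgeR), and none was in the downward one, against 2.15% and 1.44%. At 1500 ppm no member was called in edgeR (5 at an unadjusted p under 0.05, and 2 higher with DESeq2), against 4.55% and 1.31%. Of the division genes 15 of 20 for G2 and mitosis and 6 of 30 for S phase rose in FFPE liver at 6000 ppm. The difference between the FFPE and the frozen effect of 6000 ppm was called by edgeR for 0 of 36 members and 0% of all genes, with 2 members at an unadjusted p under 0.05 and 0 called by DESeq2. On the log2 scale, FFPE minus frozen, it was 0.90 (SE 0.31) for Hist2h3c2, 0.08 (SE 0.22) for Hist2h3c1 and 0.21 (SE 0.15) for Hist1h1c, so these data neither show nor bound closely a difference for Hist2h3c2.

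In the DEHP livers, with the animal as a block, 5 of 36 members were higher and 9 lower in FFPE than in frozen tissue, both smaller shares than the 32.9% and 31.3% of all genes, with a median of -0.05 against 0.02. In 0 ppm animals alone 2 were higher, and without animal 8C 8 were. The counts by type follow as a description, since no difference between types was tested. Of 7 H3 genes 4 were higher and none lower, of 9 H2B genes 5 and of 4 H1 genes 4 were lower and none higher, of 10 H4 genes 1 was higher, and of 6 H2A genes none was called. Hist2h3c1 had 8.24, 16.5 and 26.1 CPM (lowest, median and highest) in FFPE, against 5.16, 10.3 and 17.1 CPM in frozen tissue, and was higher in 15 of 16 animals (0.60, SE 0.08, adjusted p = 1.58e-06, edgeR). Hist2h2bb, an H2B gene with no tail annotated, had 0.815, 1.61 and 3.33 CPM in FFPE, against 2.09, 2.50 and 4.86 CPM in frozen tissue, and was lower in 16 of 16 animals (-0.79, SE 0.12, adjusted p = 5.34e-06, edgeR).

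Hist2h3c2 (0.61, but -0.0604 in 0 ppm animals alone) and Hist2h4 (0.61) were higher in 14 of 16 animals each, as was Hist1h3e (0.98), and Hist1h3h (1.13) in 12. Lower in FFPE were the linker genes Hist1h1d (-0.58, adjusted p = 3.27e-05), Hist1h1a (-0.74, but 0.00039 in 0 ppm animals alone), Hist1h1c (-0.18) and Hist1h1e (-0.17), and the H2B genes Hist1h2bc (-0.24, adjusted p = 0.00291), Hist1h2bk (-0.75), Hist1h2bn (-0.84, but 0.11 in the second count tables) and Hist1h2bb (-0.43, adjusted p = 0.0398, edgeR, but 0.046 in 0 ppm animals alone). Hist1h2bc averaged 64.8 CPM in FFPE and 76.5 CPM in frozen tissue and was higher in FFPE in 2 of 16 animals. Among the other tail-less RNAs 9 of 10 were higher in FFPE and none lower (median 0.78), led by the vault RNA Vaultrc5 (1.39) and Rprl3 (1.04), with Rmrp at 0.46. Of 21 genes of histone mRNA processing 4 were higher and 13 lower, with Slbp at -0.41 and Npat at -0.31. Pcna (-0.97), H2afz (-0.47), H3f3b (-0.33) and Top2a (-0.46) were lower, and Mki67 did not pass (-0.20, adjusted p = 0.052, edgeR).

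**Figure D4:**
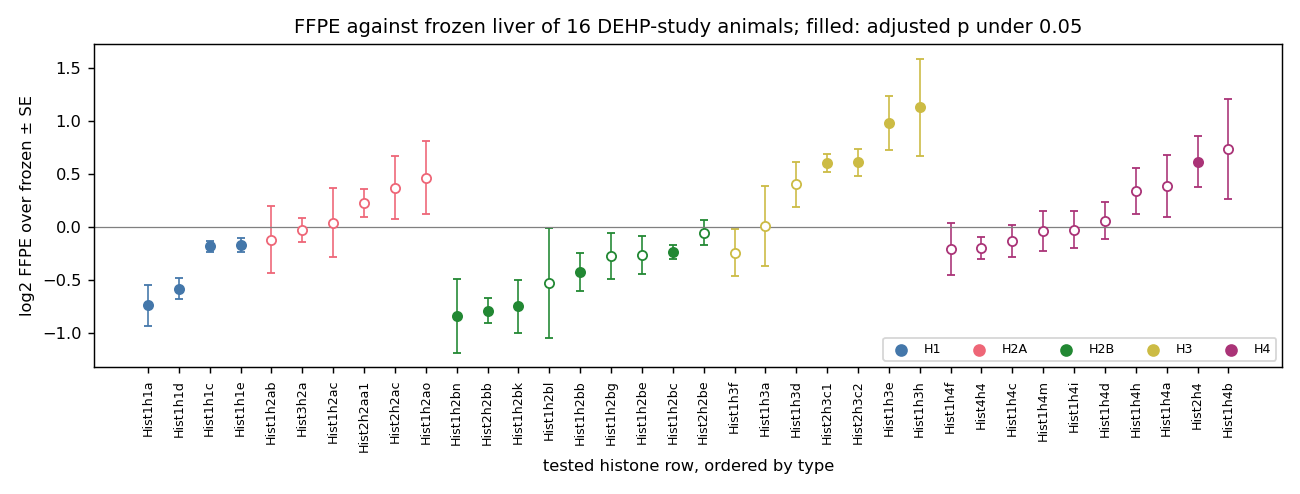
Log2 fold change, FFPE over frozen, of the 36 histone genes tested in the DEHP livers (16 animals, animal as block); points are fitted values and bars 1 SE. The 5 genes called higher are of H3 or H4 type and the 9 called lower of H1 or H2B type.

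How far the preparations ordered the animals alike varied by gene group. Across the 16 DEHP animals the log2 FFPE and frozen levels correlated at r = 0.95 for the 22 genes of G2 and mitosis, at 0.70 for the H1 sum, 0.56 for H3, 0.43 for H2B, -0.13 for H2A and -0.13 for H4. Without the 2 animals farthest from the median r was 0.45 for H1, 0.62 for H3, 0.61 for H2B, -0.12 for H2A and 0.34 for H4. Within dose groups it was 0.62 for H1, 0.44 for H3, -0.15 for H2B, -0.18 for H2A and -0.36 for H4, so H2B and H4 have no settled sign. These values describe 16 pairs, of which 35A and 67C did not correlate best with their own partner over all genes (r = 0.058 and 0.080). The other tail-less RNAs gave -0.03. The sum of all members was lower in FFPE in 12 of 16 animals, averaging 200 ± 27.6 CPM in FFPE and 212 ± 24.8 CPM in frozen tissue (SD, n = 16 each).

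**Figure D5:**
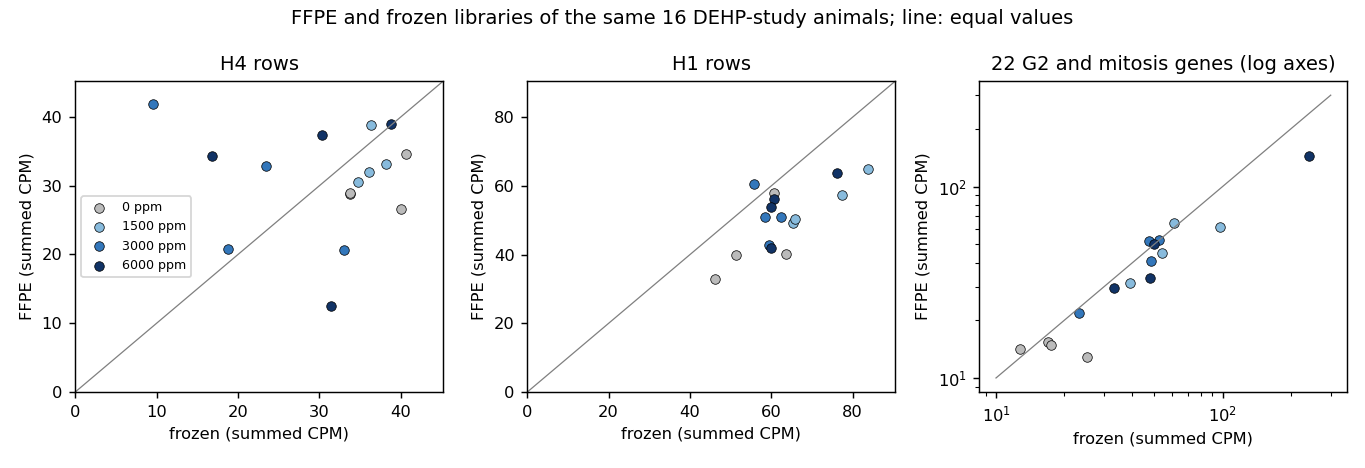
Level in FFPE against level in frozen liver of the same DEHP animal, in CPM. The H4 sum and the H1 sum are on linear axes from 0, and the 22 genes of G2 and mitosis on log axes. The line marks equality. The mitosis genes ordered the animals alike (r = 0.95), with a mean log2 FFPE minus frozen of -0.25. H1 lies mostly below the line (r = 0.70, mean -0.32), and H4 is scattered around it (r = -0.13, and 0.34 without the 2 animals farthest from the median).

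The DCA FFPE libraries allow little. Total counts were 182115 to 653011 at 3.5 g/L, against 2167550 to 8434620 at 0 g/L, and Rn45s held 4.89% to 84.2% of counts over all 24. Histone rows had 0 to 76 counts per library at 3.5 g/L, against 57 to 680 at 0 g/L, and 15 rows had none in any library. Only 3 members could be tested for dose (Hist1h2bc, Hist1h1c and Hist2h3c1), and at 1, 2 and 3.5 g/L none was called in edgeR, with 0 at an unadjusted p under 0.05, against 0.126%, 0.335% and 0.293% of all genes in either direction; DESeq2 called 0. With 3 counts equal to 0.356 to 27.4 CPM across these libraries, little can be said of the members. At 3.5 g/L the log2 fold changes were -0.14 (SE 1.24) for Hist1h2bc, -0.53 (SE 1.33) for Hist1h1c and -1.05 (SE 1.39) for Hist2h3c1.

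Against frozen tissue of the same DCA animals 20 of 25 members were lower in FFPE and none higher. Of all genes 59.4% were lower and 1.21% higher. The members' median was -3.39, against -1.54 over all genes. Members could pass the count filter on frozen libraries alone. Hist1h4m, for example, had FFPE counts only in animal 5 (3 counts). For such members lower was the only call open, so neither the count nor the median shows a loss particular to histone RNA. DESeq2 called 3 lower, the 0 g/L animals alone gave 3, and DESeq2 size factors in edgeR gave 11. Hist1h2bc was at -2.03 and Hist1h1c at -1.61 on the log2 scale; for rarer members the level worth 3 counts in a shallow FFPE library exceeds the frozen level, so their counts of 0 say little. Of 9 other tail-less RNAs 3 were higher and 2 lower. The summed level was lower in FFPE in 22 of 24 animals and 0 in 2 of them. The difference between the FFPE and the frozen effect of 3.5 g/L was called for 0 of 25 members in edgeR (2 at an unadjusted p under 0.05), against 0.0607% of all genes.

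For frozen livers, 1 fit set the effect of 6000 ppm DEHP beside that of 3.5 g/L DCA, each against its own controls. The DEHP effect was higher than the DCA effect for 8 of 46 members and lower for none, against 6.48% and 6.85% of all genes. For Hist1h2bc the difference was 0.95 (SE 0.16, adjusted p = 0.00017, edgeR), with 74.4 to 91.7 CPM at 6000 ppm DEHP against 56.7 to 77.7 CPM at 0 ppm, and 28.2 to 37.1 CPM at 3.5 g/L DCA against 46.4 to 58.2 CPM at 0 g/L. For Hist2h3c1 it was 1.504 (SE 0.29, adjusted p = 0.000638), for Hist2h3c2 2.32 (adjusted p = 0.00153) and for Hist4h4 1.32 (adjusted p = 0.0156, edgeR). Hist1h3c (5.38), Hist1h2ao (3.26), Hist1h1b (1.94) and Hist1h2bb (1.56) completed the 8. In DEHP frozen livers Hist1h3c had only 1, 0, 0 and 0 counts at 0 ppm and 2, 20, 0 and 3 at 6000 ppm, the 20 in animal 44A. Hist1h2ao had 3 to 8 counts at 0 ppm and 0 to 25 at 6000 ppm, so the size of both differences is uncertain. Without DEHP animal 44A 3 of the 8 calls were left. Chemical, study year, exposure route and the codes in the column names differ together between the studies and cannot be told apart.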

How the data were processed

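RNA was sequenced from 80 mouse liver libraries, stranded and depleted of ribosomal RNA from 100 ng of total RNA per the labels' protocols. CASAVA, STAR 2.4, RSEM and the mm10 build are named in the submitters' processing notes. The authors deposited RSEM expected counts per gene, which need not be whole and were rounded here, and FPKM tables, used here only for levels between genes. A second set of count tables deposited by the authors served as an alternative.

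Genes passed filterByExpr (minimum count 10) in each fit. TMM scaling and the quasi-likelihood test of edgeR 4.0.16 (R 4.3.3) were fitted over all genes tested, with Benjamini-Hochberg adjustment at 0.05, each dose against 0 within a chemical and preparation. FFPE was compared with frozen tissue with the animal as block. The labels tie both libraries of an animal: 14 of 16 DEHP animals correlated best with their own partner (7739 genes; 35A and 67C did not), and 14 of 24 DCA animals (3941 genes). A further fit of all frozen livers tested, by an interaction term, the effect of 6000 ppm DEHP minus that of 3.5 g/L DCA. DESeq2 1.42.0 was an alternative. The fits were tested on simulated data. No libraries were identical (0 pairs).

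The members and the 13 gene lists were chosen with earlier results of these data known. Genes are named if called (the 10 of smallest p where over 10), among the 10 highest in frozen controls, or on a short list of histone genes of special interest. Depth differs by library, and DCA FFPE values rest on few counts.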

Additional observations from a re-analysis of the deposited data

Results flagged for a closer look

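Of 76 combinations of a dose group and a histone sum, 10 held a library whose gap to its nearest neighbour was wide for its group's range. Chance gives about 1 in 20 for independent, normally distributed values. These combinations are not independent: the sum of all members includes the sums by type, and animals 49 and 78 recur. No excess over chance can be read from the 10. In DCA frozen livers at 1 g/L, animal 49 stood above the other 5 in the sum of all members (252 CPM, nearest 173), the H1 sum (88.1, nearest 67.2) and the H4 sum (51.4, nearest 17.3). Its column name carries the same L code as the controls. At 2 g/L animal 78 stood above its group in the H2A sum (40.7 CPM, nearest 21.997) and the H4 sum (93.4, nearest 58.1), and at 3.5 g/L animal 97 in the H4 sum (47.8, nearest 20.2). In DCA FFPE livers at 2 g/L animal 74 had a summed level of 257 CPM (nearest 95.5), on few counts. In DEHP frozen livers, at 1500 ppm animal 40A was high in the H2B sum (111 CPM, nearest 88.1) and animal 72B low in the H3 sum (14.4, nearest 21.9), and at 6000 ppm animal 44A was high in the H1 sum (76.2, nearest 60.8).

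For 8 members the top-dose effect in frozen liver differed between the chemicals by the interaction test of edgeR. On the log2 scale, DEHP minus DCA, the differences were 0.95 for Hist1h2bc, 1.504 for Hist2h3c1, 2.32 for Hist2h3c2, 5.38 for Hist1h3c, 3.26 for Hist1h2ao, 1.32 for Hist4h4, 1.56 for Hist1h2bb and 1.94 for Hist1h1b. Those of Hist1h3c, Hist1h2ao and Hist1h1b rest on few counts in the DEHP livers. The part of study year and of the codes in the column names in these differences cannot be told apart from the chemical.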

How the results depend on the processing

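Alternatives were run 1 choice at a time. Over all values and settings 2919 were labelled the same, 386 lost a call or fell in count, 23 gained, 10 moved and 6 reversed. The cause was not tested. For a gene, the same means that direction and side of the threshold were kept, and for a count, that it changed little. A ratio of sums counted as the same if it shifted by less than the SD of its controls, so a ratio near 0 could change sign. The choices using the Rn45s share, code L3 or animals 35A and 67C were added after seeing the data. The first code of the column names as a term left 2 members lower at 1 g/L DCA in frozen liver, and the Rn45s share as a covariate left 1; at 3.5 g/L that covariate left 12 lower and 2 higher, as no scaling gave 2 higher. At 2 g/L, without the 3 shallow libraries with code L3, 2 rose and 0 fell, and without scaling 0 fell. At 6000 ppm DEHP in frozen liver 1 member rose with no filter, a stricter filter, only both groups compared, that code as a term or the Rn45s covariate, and 0 in the second count tables; 1 fell in DESeq2 and with the Rn45s covariate. In FFPE, 5 rose with no filter and 0 in the second tables.

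FFPE against frozen, DEHP 0 ppm animals alone gave 2 higher and no scaling 3. Leaving out the animal as replicate block gave 5 lower in DEHP and 13 lower and 1 higher in DCA, and 2 members with a higher DCA effect in FFPE; the block changed no other count by this much. In DCA, 3 were lower with 0 g/L animals alone and 3 with DESeq2, 11 with DESeq2 size factors, and 39 lower and 1 higher with no filter. Fitted values reversed for Hist1h1a (0.00039), Hist1h2bb (0.046) and Hist2h3c2 (-0.0604) in 0 ppm animals, Hist1h2bn (0.11) in the second tables, and Hist2h2be in DCA (0.064 with DESeq2, 0.27 without the block).

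Log2 ratios of the summed level moved to -0.85 (FPKM) and -1.25 (median of the rows) at 1 g/L DCA in frozen liver, from -0.58, and to -0.86 and -1.19 at 3.5 g/L, from -0.57. At 3.5 g/L in FFPE the ratio was -0.74, and -0.021 without Rn45s. For 6000 ppm DEHP it was 0.15 in frozen liver and 0.50 by the median of the rows, and in FFPE 0.33, with 0.20 by total CPM, 0.12 by FPKM, 0.81 by the median and 0.17 in the second tables.

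Leaving out 1 animal at a time gave 10 to 24 lower at 1 g/L DCA (24 without animal 49), 3 to 6 higher (3 without control 8 or treated 75, 76 or 78) and 1 to 4 lower (4 without 78) at 2 g/L, 0 to 1 higher and 20 to 26 lower at 3.5 g/L, 0 to 2 higher and 0 to 1 lower at 6000 ppm DEHP in frozen and 2 to 6 higher in FFPE liver (6 without control 75A). FFPE against frozen it gave 4 to 8 higher and 7 to 10 lower in DEHP and 19 to 22 lower in DCA, and DEHP minus DCA 3 to 11 higher (11 without DCA animal 97). The ratios of the sum ranged from -0.71 to -0.49, -0.14 to 0.07 and -0.65 to -0.48 at 1, 2 and 3.5 g/L, from -1.03 to -0.48 in FFPE at 3.5 g/L, and from 0.06 to 0.20 in frozen and 0.25 to 0.44 in FFPE liver at 6000 ppm.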
